A study of Mus musculus with 2 samples.

Results

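The miR-376 family of microRNAs (miRNAs) was followed in small RNA libraries of mouse brain, together with reads in which an adenosine of its seed was read as guanosine. The members were mmu-miR-376a, mmu-miR-376b and mmu-miR-376c (mmu- marks mouse and is left out below), star strands left out. These are 3 of the 484 miRNAs on the study's list that could be tied to a distinct read sequence, here called a tag, through their pair of raw counts. To the tag of each member were added all tags with the same first 18 nucleotides, whatever their 3′ end, and all tags of the same 5′ end with a single substitution in those 18 nucleotides.

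The study compared small RNAs of young and old brain. The young library came from male C57BL/6J mice of 5 months and the old library from male C57BL/6J mice of 24 to 25 months, an inbred laboratory strain. Each library combined the cDNA of 2 brains, made from RNA of 18 to 30 nucleotides cut from a gel. The young library held 4523267 reads in 372464 tags and the old library 6658732 reads in 505732 tags. With 1 library per age there was no replicate error, so every test below compares these libraries and not the ages. Intervals and standard errors (SE) cover counting error only, since PCR reads are not independent molecules.

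The members are encoded in the large imprinted miRNA cluster of the distal part of mouse chromosome 12, which is expressed from the maternal chromosome and strongly in brain. Deaminases of the ADAR family convert adenosine to inosine in double-stranded RNA such as miRNA hairpins, and inosine pairs with cytidine, so a sequencer reads it as guanosine. A miRNA finds its targets mainly through its seed, the bases near its 5′ end, and a base converted there changes the set of matching targets. The hairpins of this family are known substrates of these enzymes in brain.

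The mature sequences are shown with the seed, bases 2 to 8, in capitals. Each is followed by the form with G at position 6, counted from 1 at the 5′ end, because the results turn on that base. The sequences are those of the tags, and each A form lies unchanged in the RefSeq hairpin of the member (GRCm38.p6).

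miR-376a: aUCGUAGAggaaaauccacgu
miR-376a with G at position 6: aUCGUGGAggaaaauccacgu
miR-376b: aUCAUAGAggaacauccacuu
miR-376b with G at position 6: aUCAUGGAggaacauccacuu
miR-376c: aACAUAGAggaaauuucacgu
miR-376c with G at position 6: aACAUGGAggaaauuucacgu

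The members share most of their bases. From miR-376a to miR-376b they differ by G4A, A13C and G20U, and from miR-376a to miR-376c by U2A, G4A, A14U and C16U. Each member has a seed of its own, and so does each G form. Among 1738 mature mouse sequences of RefSeq, 1 other carried one of these seeds, miR-7232-5p, which shares ACAUGGA with the G form of miR-376c. Within the first 18 nucleotides the G form of miR-376b differs from miR-376a at 3 bases, and that of miR-376c differs from the A form of either other member at 5, so a single misread base does not turn one into the other.

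The hairpins are shown with the 3′ strand, which holds the site, in capitals, so that the partner strand can be seen beside it.

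Mir376a hairpin: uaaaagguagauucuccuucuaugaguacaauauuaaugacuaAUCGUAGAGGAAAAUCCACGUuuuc
Mir376b hairpin: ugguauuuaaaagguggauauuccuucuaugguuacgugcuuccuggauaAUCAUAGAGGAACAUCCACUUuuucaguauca
Mir376c hairpin: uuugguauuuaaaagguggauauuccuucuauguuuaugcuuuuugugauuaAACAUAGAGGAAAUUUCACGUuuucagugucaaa

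On NCBIM37, the assembly called mm9, all 3 hairpins lay on the plus strand of chromosome 12 within 1131 bases. That of miR-376c was at chr12:110960928-110961013, that of miR-376b at chr12:110961668-110961749 and that of miR-376a at chr12:110961991-110962058. Position 6 of the 3′ strand fell on base 110960985 in miR-376c, on 110961723 in miR-376b and on 110962039 in miR-376a. In the annotation used here (GENCODE vM1) the hairpin of miR-376b lay on the miRNA gene Mir376b, that of miR-376a overlapped an annotated miRNA gene of the minus strand, AC121784.2, and no gene was annotated over that of miR-376c. In the minimum free energy structure from RNAfold the adenosine at position 6 was paired with a uridine in every hairpin. The structures differed at position 4, a G-U pair in miR-376a and an A-U pair in the other hairpins. Their free energies were -16.6 kcal/mol for miR-376a, -33.8 for miR-376b and -29.3 for miR-376c, with hairpins of 68, 82 and 86 nucleotides.

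The members differed widely in level. With any 3′ end and A at position 6, miR-376a had 25432 young and 26439 old reads, or 5622 and 3971 RPM (reads scaled to a library of 1000000). For miR-376b the same form had 382 and 696 reads, or 84.5 and 105 RPM. For miR-376c it had 23 and 52 reads, or 5.08 and 7.81 RPM. The order from miR-376a down to miR-376c was the same in both libraries and each step exceeded the counting error. By exact sequence and mean RPM, miR-376a ranked 15th, miR-376b 98th and miR-376c 190th of the 353 counted miRNAs that are not star strands.

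Reads with G at position 6 changed this picture for miR-376b and miR-376c. miR-376b had 2024 young and 2617 old reads with G at position 6 and no other substitution, or 447 and 393 RPM, several times its reads with A. miR-376c had 49 young and 32 old such reads, or 10.8 and 4.81 RPM. miR-376a had 13 and 11. With A and G reads together miR-376b reached 532 young and 498 old RPM and miR-376c 15.9 and 12.6, and the order of the members stayed as before.

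**Figure D1:**
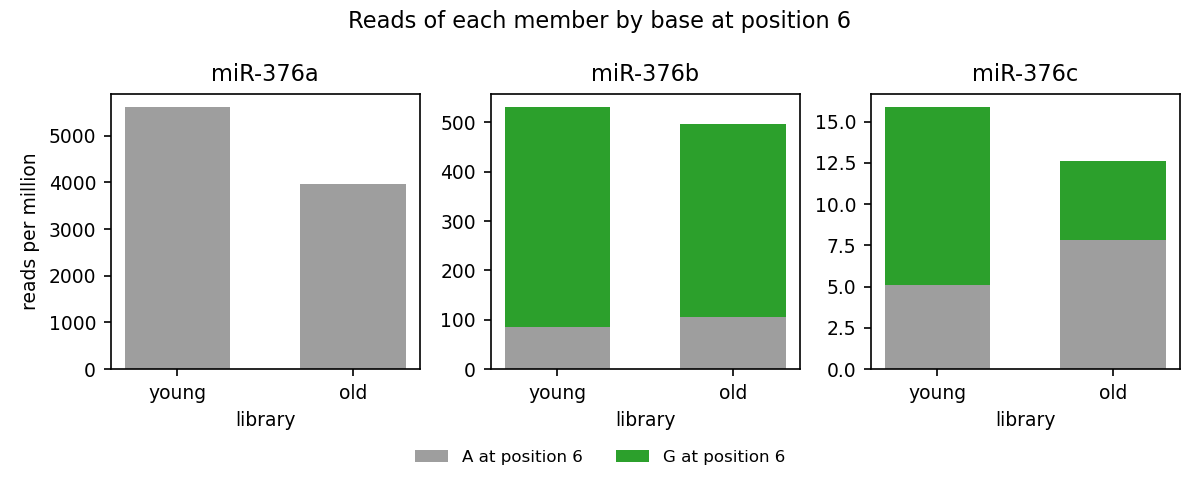
RPM (vertical axis, a scale of its own for each member) with A (grey) and G (green) at position 6 in the young and old libraries, 1 library per age, all 3′ ends. Nearly all miR-376a reads carry A, most miR-376b reads carry G, and in miR-376c the G part is 10.8 RPM in the young and 4.81 in the old library.

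As a share of the A and G reads together, G at position 6 made up 84.1% of miR-376b in the young library (95% Wilson interval 82.6 to 85.5%) and 79.0% in the old library (77.6 to 80.3%). In miR-376c it made up 68.1% in the young (56.6 to 77.7%) and 38.1% in the old library (28.4 to 48.8%). In miR-376a it made up 0.0511% in the young (0.0299 to 0.0874%) and 0.0416% in the old library (0.0232 to 0.0745%). Between members the share therefore ran from near the level of other substitutions to most of the reads. Within each library all pairs of members differed by Fisher's exact test (two-sided, adjusted over 6 comparisons), the closest pair being miR-376b and miR-376c, with adjusted p = 0.000932 in the young and 1.98e-15 in the old library. In the family as a whole, where miR-376a dominates, 7.47% of 27923 young and 8.91% of 29847 old reads carried G.

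**Figure D2:**
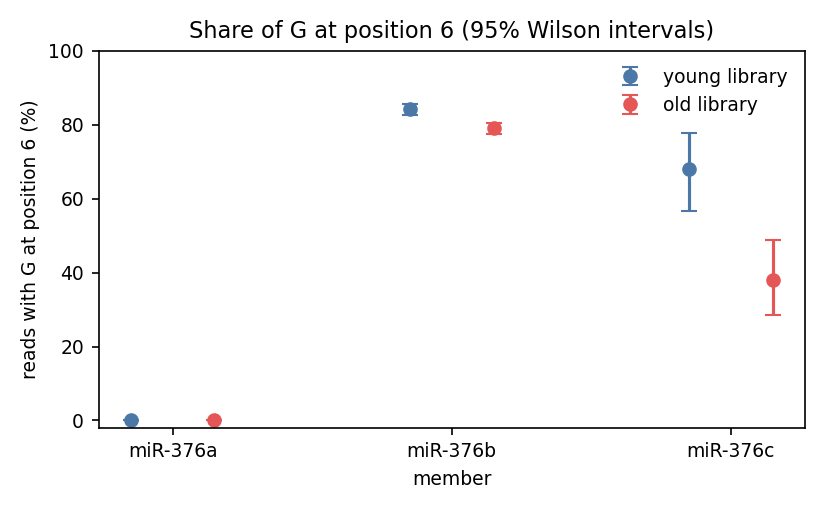
Share of reads with G at position 6 (vertical axis, percent) for each member in the young (blue) and old (red) library, with 95% Wilson intervals that cover counting error only. miR-376b lies at 84.1% and 79.0%, miR-376c at 68.1% and 38.1%, and miR-376a near 0 in both.

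The other substitutions in the same 18 nucleotides were counted for comparison, and their origin was not tested. Each was counted as the only substitution, so those outside position 6 are on reads with A there. In miR-376b the 51 others that could not come from another known miRNA summed to 30 young and 95 old reads, against the 2024 and 2617 reads of A6G. The most frequent of them was C16T in both libraries, with 5 young reads (1.29%) and 13 old reads (1.83%), and 34 of the 51 had no read in the young library. At position 6 itself, A6C had 1 read in each library and A6T 1 young and 6 old reads. A-to-G at the 6 other adenosines of miR-376b that could be read gave 3 reads in each library. Left out were A4G, with 19 young and 15 old reads (4.74% and 2.11%), and C13A, with 18 and 44 (4.50% and 5.95%), each 1 substitution from the start of miR-376a. The excess of A-to-G was thus limited to 1 of the adenosines of miR-376b that were compared. Further substitutions on reads with G at position 6 are outside these counts. With at most 1 of them allowed, the G reads rose from 2024 to 2183 in the young and from 2617 to 2864 in the old library.

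The other members were compared in the same way. In miR-376c the 53 other substitutions summed to 0 young and 6 old reads, so A6G held all young reads with a single substitution. With 23 and 52 unsubstituted reads, the depth cannot show another substitution of a few percent. In miR-376a all 51 others had reads, with a median of 0.0982% in the young and 0.106% in the old library, both above its A6G share. The largest A-to-G share of miR-376a was A12G, with 233 young and 244 old reads (0.908% and 0.914%), and in the old library T5G reached 388 reads (1.45%). At position 6 miR-376a had 13 young and 11 old reads of A6G, 7 and 5 of A6C and 6 and 5 of A6T, so A6G was the most frequent change there, with Wilson intervals that overlap those of the other changes, while its share stayed below the median of the 51 others.

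**Figure D3:**
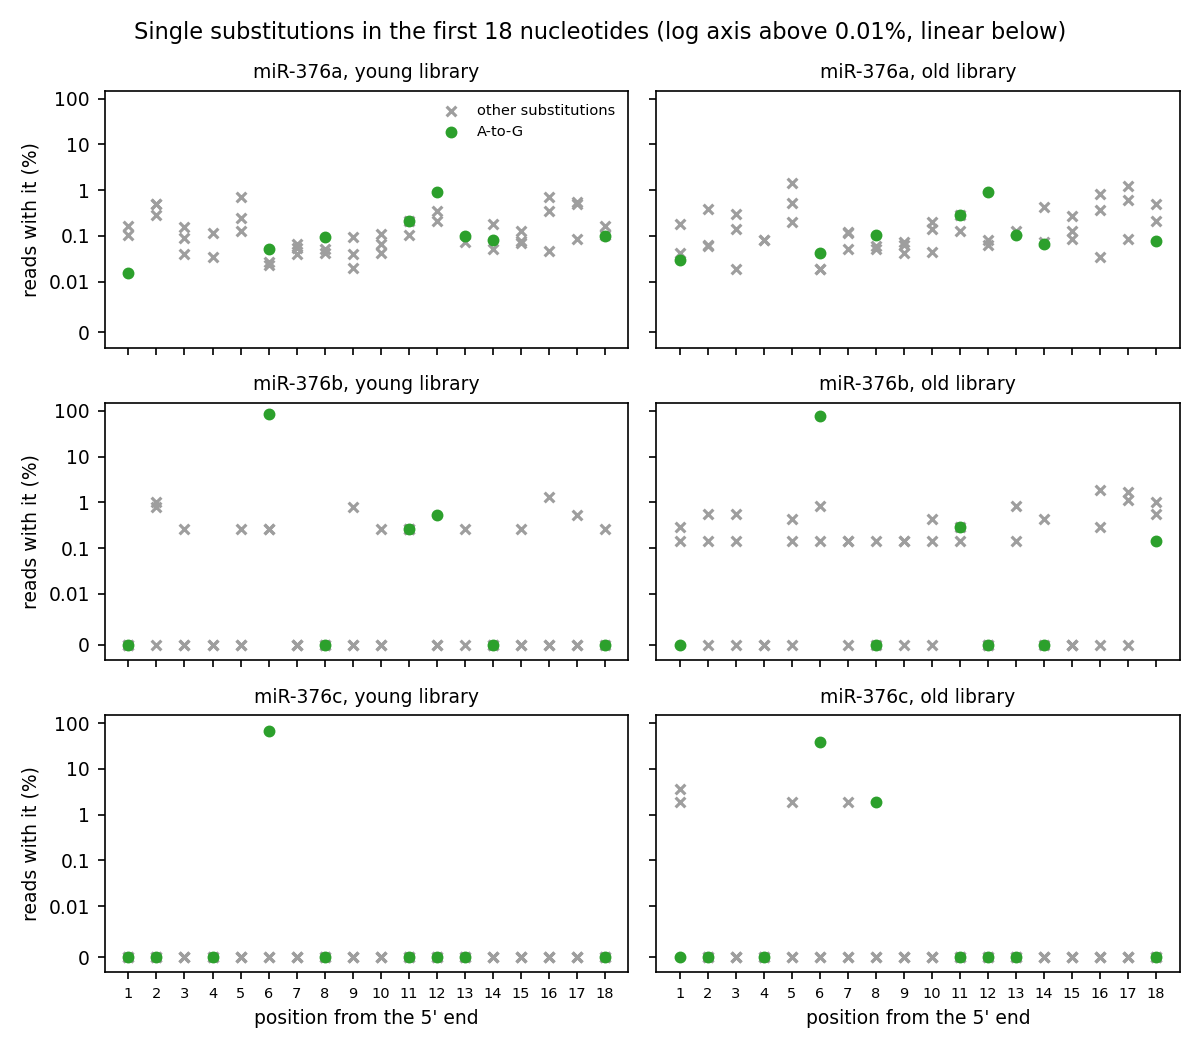
Share of reads with each single substitution (vertical axis, percent, log scale above 0.01 and linear below) at each of the first 18 positions (horizontal axis), for each member and library, with A-to-G in green circles and all others as grey crosses. Position 6 of miR-376b and miR-376c stands far above all other points, while position 6 of miR-376a lies among them.

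A search of NCBIM37 for perfect matches of the 18 nucleotides, on both strands, asked whether the G forms could be other genomic sequences. The G forms of miR-376a and miR-376b had 0 matches. The G form of miR-376c had 2, on chromosome 9 and chromosome 11, which ended at nucleotide 18, so that neither held the whole tag of 21 nucleotides. Counting only tags of the full exact sequence with A or G at position 6, a choice made after the data had been seen, left 41 young and 28 old G reads of miR-376c and shares of 69.5% and 38.9%. The unsubstituted start of miR-376b also matched 2 unplaced contigs over 18 nucleotides and none of them over 21.

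The same measure was taken over all counted known miRNAs as background. Among 809 adenosines at positions 2 to 17 of 197 miRNAs with at least 100 unsubstituted reads in each library, 17 (2.1%) were called, that is, had an A-to-G share of at least 1% in both libraries and above the A-to-C and A-to-T shares there. Position 6 of miR-376b was among them and position 6 of miR-376a was not, while miR-376c fell under the read minimum. As the minimum counts unsubstituted reads only, a miRNA read mostly with G can fall under it, so the ranks below hold only among the adenosines that reached it. By size the share of miR-376b ranked 2nd of the 809 in both libraries, after position 7 of miR-3099 (96.0% young and 96.5% old), whose G form, unlike that of miR-376b, has 1 perfect match in NCBIM37 over 18 nucleotides. Whether that match holds the whole tag was not tested, unlike for the matches of miR-376c above. Among the 727 adenosines whose G form has no perfect match over 18 nucleotides, a choice made after the data had been seen, miR-376b had the largest share in both libraries. The next was position 5 of miR-411, at 26.0% and 20.1%. The median over the 809 adenosines was 0.0540% in the young and 0.0502% in the old library, close to the miR-376a values. Among 46 other miRNAs with an adenosine at position 6 the median share was 0% in both libraries and the largest 1.68% young and 0.885% old.

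**Figure D4:**
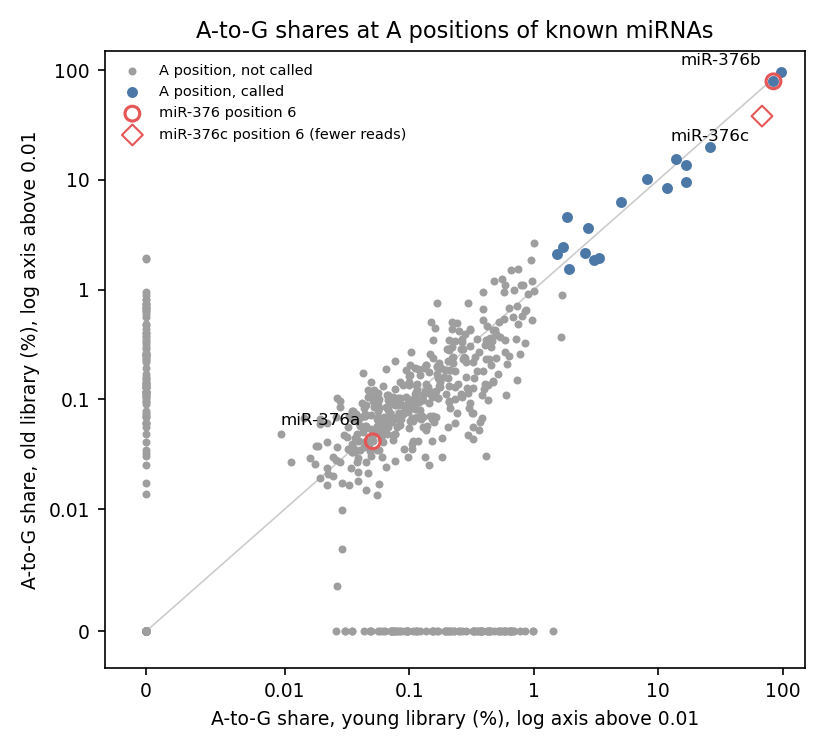
A-to-G share in the young (horizontal) and old (vertical) library at the 809 adenosines of known miRNAs, in percent, log axes above 0.01 and linear below, with called adenosines in blue and position 6 of the members in red. miR-376b lies near the upper right corner, miR-376a in the middle of the uncalled cloud, and miR-376c, which has fewer reads than the minimum, below the diagonal.

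The share of G at position 6 was lower in the old library for both miR-376b and miR-376c. For miR-376b the difference, old minus young, was -5.13 percentage points (95% Newcombe interval -7.13 to -3.10), with p = 9.45e-07 by Fisher's exact test, two-sided, and 4.50e-05 after Benjamini-Hochberg adjustment over the 809 adenosines. Of those 809, 35 (4.33%) passed an adjusted p of 0.05. For miR-376c the difference was -30.0 points (-43.6 to -14.3), with p = 0.000219 by the same exact test. It entered the adjustment only when the read minimum was lowered to 20, a choice made after the data had been seen, and its adjusted p was then 0.0104. For miR-376a the difference was -0.00950 points (-0.0502 to 0.0296; exact p = 0.686), so none was detectable. A share of this kind does not depend on how the libraries are scaled to each other.

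Lower G shares in the old library were not a general feature of the called adenosines. Of the 17, 9 were lower and 8 higher in the old library, and 6 of the 17 passed the adjusted Fisher's test. Those 6 were miR-376b, position 5 of miR-379 (16.6% young and 9.57% old), position 5 of miR-411, position 16 of miR-378 (11.8% and 8.43%), position 15 of miR-219-3p (5.02% and 6.30%) and position 15 of miR-485 (1.53% and 2.12%). The first 4 were lower and the last 2 higher in the old library. miR-379, miR-411 and miR-485 lie in the same chromosome 12 cluster as the members, so the cluster held both directions. At position 15 of miR-485 the A-to-T share was also higher in the old library (0.255% young and 0.554% old). The same held at position 15 of miR-219-3p (0.656% and 1.01%). Whether the higher A-to-G shares there are particular to that change was not tested. Position 7 of miR-381 and position 7 of miR-300, also of that cluster, had shares of 2.58% and 2.17% and of 8.08% and 10.1%, with adjusted p = 1 for either by Fisher's exact test. Outside the cluster, position 2 of miR-497 had 13.8% and 15.4% and position 3 of miR-151-3p 3.05% and 1.87%, neither with an adjusted p under 0.05. Position 3 of miR-540-5p, at 16.6% and 13.7%, did not pass either. Also looked at as known to be edited in brain, miR-421 and miR-455 fell under the minimum of 100 reads. Position 14 of miR-421 had 5.13% and 6.78%, with 37 young and 55 old unsubstituted reads. No G read was seen at the adenosines compared in miR-455, with 21 and 22 such reads.

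The old to young ratio of a member depended on which base at position 6 was counted. By exact sequence, miR-376a had 19869 young and 20938 old reads, miR-376b 229 and 444, and miR-376c 18 and 44. Normalized to the total reads, with a factor of 1.47 between the libraries, the log2 ratio (old/young) was -0.48 for miR-376a (counting SE 0.014), 0.40 for miR-376b (0.12) and 0.73 for miR-376c (0.40). By DEGseq's random sampling model for MA plots, two-sided and adjusted over the 484 miRNAs, miR-376a was lower with adjusted p = 4.36e-254, miR-376b higher with 0.00149, and miR-376c had 0.122. These calls depend on the scaling: with known-miRNA reads as depth miR-376b had an adjusted p of 0.185, and under TMM and DESeq2's factors, scalings described below, miR-376a was called higher (log2 ratios 0.28 and 0.13) and miR-376c passed as higher too, with adjusted p = 0.000448 and 0.00199 by the same model. Over all 484 miRNAs, 4.75% were called higher and 36.2% lower in the old library by the same rule. With total reads as depth none of the 3 members changed by 2-fold or more (miR-376b and miR-376c did under TMM and DESeq2's factors, given below), which 1.8% of 222 miRNAs that are not star strands and have at least 10 reads did upward and 30.2% downward.

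With total reads as depth, the G forms of miR-376b and miR-376c went the other way. For miR-376b the log2 ratio was 0.31 (counting SE 0.092) for A reads with any 3′ end and -0.19 (0.043) for G reads, and for A and G reads together it was -0.10 (0.039), although TMM and DESeq2's factors put the G reads at 0.58 and 0.43. For miR-376c it was 0.62 (0.36) for A reads, -1.17 (0.33) for G reads and -0.34 (0.23) together. With total reads as depth, miR-376b was thus higher in the old library in its A reads, the smaller part of its reads in both libraries, and lower in its G reads, while under TMM and DESeq2's factors both were higher. The gap between the log2 ratios of the G and A forms, which scaling cannot move, was -0.49 (counting SE 0.10) for miR-376b and -1.79 (0.49) for miR-376c, and -0.30 (0.59) for miR-376a.

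**Figure D5:**
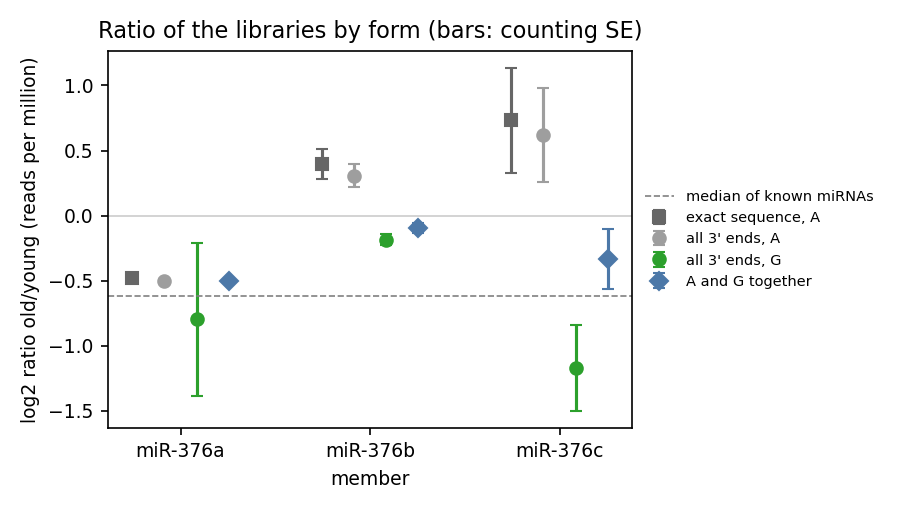
Log2 ratio (old/young) of RPM for each member by form, with counting SE as bars, and the median of 222 known miRNAs as a dashed line. In miR-376b and miR-376c the A forms lie above 0 and the G forms below it, while the forms of miR-376a all lie below 0; under the TMM and DESeq2 scalings the A form of miR-376a, the G form of miR-376b and the combined form of every member turn above 0.

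The scaling of the libraries set the direction of several of these ratios. The median log2 ratio of the 222 miRNAs was -0.62, with 44 higher and 178 lower in the old library, and relative to this median miR-376a stood at 0.14, miR-376b at 1.01 and miR-376c at 1.35. Factors from edgeR's TMM and DESeq2's size factors shifted all log2 ratios by 0.76 and 0.61, and known-miRNA reads by -0.21. By exact sequence, under TMM and under DESeq2's factors, miR-376a became 0.28 and 0.13. For miR-376b the ratios became 1.16 and 1.01 and for miR-376c 1.49 and 1.35, both members past 2-fold. Of all 222 miRNAs, 29 were 2-fold or more higher under TMM and 25 under DESeq2's factors. Under the same factors A and G reads together became 0.67 and 0.52 for miR-376b and 0.43 and 0.28 for miR-376c. The calls over the 484 miRNAs moved from 23 higher and 175 lower to 91 and 56 under TMM and to 77 and 81 under DESeq2's factors. The G form of miR-376c had a log2 ratio below 0 under every scaling, and the A forms of miR-376b and miR-376c above 0.

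Among the miRNAs of at least 100 reads, star strands left out, those nearest in log2 ratio were miR-7a and miR-29b for miR-376a (-0.48 and -0.49), miR-335-5p and miR-410 for miR-376b (0.42 and 0.34), and miR-1 and let-7d for miR-376c (0.73 and 0.73). miR-410 closes the same cluster. For 33 names of neighbours in the cluster, 26 strands could be tied to a tag and had at least 10 reads. Both strands of miR-369, miR-380 and miR-409 were among them, so the counts below are of strands. Their median log2 ratio was -0.68, 22 were lower and 4 higher in the old library, 10 were 2-fold or more lower and none higher (of all 222 miRNAs, 178 were lower and 67 were 2-fold or more lower), and they ranged from -1.78 (miR-666-5p) to 0.34 (miR-410). Under TMM 12 of the 26 were lower, 1 of them 2-fold or more, with 1 that much higher. Under DESeq2's factors 13 were lower, 3 of them 2-fold or more, with none that much higher. Of all 222 miRNAs, 99 were lower under TMM, 14 of them 2-fold or more, with 29 that much higher. For DESeq2's factors these counts were 112, 23 and 25.

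Both forms of miR-376b were mostly of the same length. Tags that ended with the mature sequence made up 59.9% of A reads in the young (95% Wilson interval 55.0 to 64.7%) and 63.8% in the old library (60.2 to 67.3%), and 74.3% (72.4 to 76.2%) and 71.5% (69.7 to 73.2%) of G reads. Longer tags that follow the hairpin made up 24.1% and 18.0% of A reads and 11.3% and 12.2% of G reads. A and G reads thus differed in their 3′ ends beyond counting error in both libraries, the G reads ending more often with the mature sequence. In miR-376a this end held 78.5% and 79.2% of A reads. In miR-376c it held 18 of 23 young and 44 of 52 old A reads, and 41 of 49 and 28 of 32 G reads.

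The 5′ strands of the hairpins, which the choice of members did not use, were rare. They are shown with bases 2 to 8 in capitals (RefSeq, GRCm38.p6), because those of miR-376b and miR-376c are the same over the first 18 nucleotides.

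miR-376a-5p: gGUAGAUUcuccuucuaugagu
miR-376b-5p: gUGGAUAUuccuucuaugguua
miR-376c-5p: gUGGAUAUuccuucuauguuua

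The exact sequence had 4 young and 5 old reads for miR-376a-5p, 12 and 15 for miR-376b-5p and 0 in both for miR-376c-5p, which allows up to 0.663 RPM in the young and 0.451 in the old library. The start shared by miR-376b-5p and miR-376c-5p had 33 reads in each library, of which 33 young and 31 old reads carried the next base of miR-376b-5p. In miR-376a-5p the form A4G had 1 young and 3 old reads beside 4 and 8 without it.

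Tissue markers were read beside these values. With all 3′ ends, a choice made after the data had been seen, the brain-enriched miR-124 had 39418 young and 17001 old RPM, miR-9 4399 and 2989, miR-128 22807 and 13512, miR-219-3p 11010 and 7336, miR-219-5p 1016 and 493, miR-338-3p 240 and 147 and miR-338-5p 14.4 and 9.61, so the labelled tissue was present in both libraries. With total reads as depth all 7 were lower in the old library, and under TMM and DESeq2's factors 2 and 4 of the 7. By exact sequence miR-124 had 397 and 126 RPM. The muscle miRNA miR-1 had 6223 and 9672 RPM, miR-206 1231 and 1195, and miR-133a was not analysed here. The liver miRNA miR-122 was at 196 and 123 RPM, miR-451 of red blood cells at 255 and 135 and miR-144 at 39.6 and 23.6, and of the pituitary markers miR-375 was at 45.8 and 9.16, miR-7a at 2654 and 1940 and miR-7b at 1141 and 569. Whether a different mix of tissue pieces had a part in the miR-376 values was not tested. Fewer cells that express a member and less of it per cell cannot be told apart in these libraries.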

How the data were processed

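Small RNAs were measured in 1 young and 1 old library. The authors trimmed the 3′ adapter from reads of 36 nucleotides, aligned them to mm9 with SOAP (version not given in the sources used here) and deposited the raw read count of each distinct sequence, not normalized. The number of mismatches allowed in the alignment to the genome is not given there either, so reads with substitutions may be under-represented. The depth was the total count of each library, and 3 reads correspond to 0.663 RPM in the young and 0.451 in the old library. Members and lists were chosen with earlier results of these data known. Columns of other samples used were 0.

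A known miRNA was tied to the tag holding both of its counts in the study's list; of 558 names, 199 had a single such tag, 268 were settled by the RefSeq mature sequence and 17, miR-376c among them, by lying inside the RefSeq hairpin. The other 74 were not analysed here. A substituted start was left out where it was another known start or within 1 substitution of another one. An undetermined base at position 2 was present in 3.90% of young and 0.610% of old reads; tags with an undetermined base in the first 18 nucleotides were not counted, and no member read had its only undetermined base at position 6.

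Shares have 95% Wilson intervals and differences Newcombe intervals. Ratios were normalized by total reads, with 0 set to 0.5, and tested with the formula of the random sampling model of DEGseq. edgeR's quasi-likelihood test could not be fitted with 1 library per age; edgeR and DESeq2 gave scaling factors only. The miRNAs named are the members and their star strands, a list of miRNAs known to be edited in brain, the called adenosines with the largest shares, neighbours of the cluster and those nearest in ratio; miR-485 was named because it passed the test, after its values had been seen. Alternatives were other scalings, sets of tags, start lengths, tag lengths, read minimums and thresholds. The functions were tested on simulated data. Software was RNAfold 2.7.2, edgeR 4.0.16 and DESeq2 1.42.0 under R 4.3.3, and, under Python 3.11.15, matplotlib 3.10.9, scipy 1.17.1 and numpy 2.4.6.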

Additional observations from a re-analysis of the deposited data

Results flagged for a closer look

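Reads that begin at another base of the hairpin, 1 to 3 nucleotides before or after the mature 5′ end, were outside the main measurement. In miR-376b, 10 of 24 such young reads (41.7%, 95% Wilson interval 24.5 to 61.2%) and 14 of 50 such old reads (28.0%, 17.5 to 41.7%) carried G at the same base of the hairpin, more than the 3 reads that a count of 0 allows. Both shares were below those of reads with the mature 5′ end (84.1% young and 79.0% old), with Wilson intervals that did not overlap. The cause was not tested. Among the shifted reads the libraries did not differ detectably at this depth (Fisher's exact test, two-sided, p = 0.292). The same shift in miR-376a gave 0 G reads of 1131 young and 954 old reads, with upper Wilson bounds of 0.339% and 0.401%.

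The start of the 5′ strand of miR-376b, shared with miR-376c and read far less often than the 3′ strand, carried A7G in 11 young reads beside 33 without it (25.0%, 14.6 to 39.4%) and in 4 old reads beside 33 (10.8%, 4.29 to 24.7%). Each other substitution in its first 18 nucleotides had at most 1 read in a library. All reads with A7G carried the next base of miR-376b and not that of miR-376c, as did 33 young and 31 old reads without it, and among reads with that base the old share was 11.4% (4.54 to 26.0%). In the structure from RNAfold this adenosine is unpaired. A difference between the libraries was not detectable (Fisher's exact test, two-sided, p = 0.151).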

How the results depend on the processing

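The G shares of miR-376b ranged from 83.9 to 86.8% in the young and from 78.5 to 80.8% in the old library over all alternatives, and those of miR-376c from 68.1 to 69.7% and from 37.3 to 38.9%. Their difference between the libraries kept its sign in each, from -5.94 to -4.88 points for miR-376b and from -31.4 to -30.0 for miR-376c, whose adjusted p was obtained at the minimum of 20 reads (-30.0). With exact sequences only, chosen after seeing the data, miR-376b moved past its interval, to 86.8% and 80.8%. The miR-376a share became 0.0255% and 0.0227% with the A-to-C and A-to-T background subtracted, and 0.0913% in the old library with 1 further substitution allowed, where its difference reversed to 0.0230 points; the cause was not tested.

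The log2 ratio of miR-376a reversed under TMM (0.28) and DESeq2's factors (0.13), and that of miR-376c passed the threshold there (1.49 and 1.35). miR-376b (1.16 and 1.01) and miR-376c were 2-fold or more higher under these factors and not with total reads. That of miR-376b missed it with known-miRNA reads as depth (0.19). With G reads added, miR-376b and miR-376c reversed to -0.10 and -0.34. G reads alone, chosen after seeing the data, gave -0.80 for miR-376a, no longer past the threshold, and reversed miR-376b (-0.19) and miR-376c (-1.17).

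Called adenosines numbered 17, and 5 at a minimum of 1000 reads, which miR-376b does not reach, 9 at a share of 5%, 16 without tags read once, and, chosen after seeing the data, 25 at 20 reads and 15 without G forms that match the genome. Against 4 miRNAs 2-fold higher and 67 lower, known-miRNA reads gave 0 higher, TMM 29 and 14, DESeq2's factors 25 and 23, and no minimum 18 and 121; a minimum of 50 reads gave 43 lower. In all, 77 values computed under an alternative, some of them given above, kept their direction and side of the threshold, or stayed within the interval or within 1.5 times the count. Against these, 7 reversed, 15 moved past the interval or the count ratio, 2 no longer passed the threshold and 3 newly passed it. Of 21 log2 ratios 11 stayed, and of 12 counts of 2-fold changes 4. The difference of miR-376c had an adjusted p only at the minimum of 20 reads. In its other settings, and for all differences with the background subtracted, only the sign was compared.

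No paired analysis was possible because there was 1 library per age. Depth limits miR-376c most, where the share rests on 72 young and 84 old reads.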
